A study of Arabidopsis thaliana with 12 samples.

Results

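The transcriptome of whole rosettes of KLU-overexpressing Arabidopsis plants was compared with that of WT (Col-0) rosettes in 9 of the 12 RNA-seq libraries of the study. The 6 libraries of the overexpressors came from 2 lines, 35S:KLU1 and 35S:KLU2, with 3 individual plants each, and the other 3 libraries came from individual Col-0 plants. In both lines the full coding sequence of KLU was fused to GFP and placed under the cauliflower mosaic virus 35S promoter, which drives expression in most plant tissues, and Col-0 carried no transgene. According to the study's methods, seedlings were first kept on plates in long days and then grown on soil in short days. All plants were harvested at 35 days after germination (DAG), and leaf is the tissue that the sample labels give. The remaining 3 libraries, from the klu mutant, were not part of this comparison. Members were the 9 libraries by their genotype labels, and each gene was compared on log2(FPKM + 1), where FPKM are fragments per kilobase of transcript, scaled to the mapped fragments of each library. Of 33323 genes in the deposited table, 24106 were above 0 in at least 1 of the 9 libraries and 19492 had at least 0.5 FPKM in 3 or more of them and were tested.

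KLU (AT1G13710, CYP78A5; chromosome 1, 4702657 to 4704694, minus strand, TAIR10.1) encodes a cytochrome P450 of the CYP78A family. Its product has not been identified, and it is known for promoting the growth of leaves, floral organs and seeds through a signal that acts beyond the cells that express the gene. Rosette leaves are built mainly of photosynthetic mesophyll, and hormones such as cytokinin, auxin, salicylic acid, jasmonate and abscisic acid set their growth, defense and aging through known marker genes. In bulk samples such as these, fewer cells of a type and less RNA per cell cannot be told apart.

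KLU was listed at 1729, 2149 and 2274 FPKM in the 35S:KLU1 plants and 2021, 2644 and 2890.3 FPKM in the 35S:KLU2 plants, against 6.26, 5.42 and 5.53 FPKM in Col-0. The 6 overexpressing plants lay far above all Col-0 plants, with a log2 fold change of 8.39 (SE of 0.12, adjusted p = 3.43e-10 in 35S:KLU1 and 2.41e-10 in 35S:KLU2), and the lines did not pass the test against each other (difference 0.29, adjusted p = 0.521). The values do not separate the transcript of the transgene from that of the endogenous gene. FPKM summed to 1110149 to 1194277 per library. The value of 1 fragment, read from the steps between low FPKM values, was 0.884 to 1.46 times that in Col-0 replicate 1, so that depth spanned a 1.65-fold range with 35S:KLU2 replicates 2 and 3 at its shallow end (1.46 and 1.27). The 10 most abundant genes held 9.83% to 10.6% of the FPKM sum in 35S:KLU plants and 11.1% to 11.4% in Col-0. Of the 5 mesophyll markers, 3 were lower in both lines and none was higher, and together they held 2.81% to 3.31% of the FPKM sum in 35S:KLU plants and 3.29% to 3.52% in Col-0. Their part in the results below was not tested. The floral organ markers reached 0.25 to 0.48 FPKM in sum in 35S:KLU plants and 0.57 to 1.25 FPKM in Col-0. The shoot meristem markers reached 5.68 to 8.62 FPKM in sum in 35S:KLU plants and 9.86 to 10.42 FPKM in Col-0, and 1 of the 2 tested was lower in both lines. Of the 8 markers of guard cells and the stomatal lineage, 1 was lower in both lines and none was higher. No marker of the epidermis or phloem was higher or lower in both lines. Of the 5 root markers, EXPA7 and RHD6 were listed at 0 in each of the 9 libraries, and COBL9 reached at most 0.12 FPKM. The others were present in all 9 libraries, SCR at 9.4 to 11.16 FPKM and WOX5 at 0.26 to 1.61 FPKM.

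The comparison asked which transcripts differ when KLU is overexpressed, and a gene was called a DEG where limma gave an adjusted p under 0.05. Many defense transcripts, chaperones of the endoplasmic reticulum and glutathione S-transferases were higher in 35S:KLU rosettes, whereas type-A cytokinin response regulators and many cell wall loosening, aquaporin and photosynthesis genes were lower. In 35S:KLU1, 3988 genes were DEGs relative to Col-0 (1890 higher and 2098 lower, 20.5% of the tested genes), and in 35S:KLU2, 5049 were (3369 higher and 1680 lower, 25.9%). The share of higher DEGs was thus 47.4% in 35S:KLU1 and 66.7% in 35S:KLU2, and it moved with the scaling of the libraries, to 49% and 49.1% with median-of-ratios scaling and to 57.1% and 57.5% with equal FPKM sums. Both lines shared 3111 DEGs of the same direction, 16.0% of all tested genes, and no gene was a DEG of opposite direction. Of these common DEGs, 1740 were higher (8.93% of the tested genes) and 1371 were lower (7.03%). They made up 78% of the DEGs of 35S:KLU1 and 61.6% of those of 35S:KLU2, although both lines were set against the same 3 Col-0 plants. The log2 fold change given from here on is the mean of both lines minus Col-0, and "higher" or "lower" of a gene means a common DEG. Most changes were small, with a median absolute log2 fold change of 0.473 among common DEGs, and 330 of them reached at least 1 (237 higher and 93 lower). Across all tested genes the median log2 fold change was 0.03. Counts of higher and lower list members below are to be read beside 8.93% and 7.03%, the shares of all tested genes. The 6 35S:KLU plants and the 3 Col-0 plants did not overlap in 5379 of the tested genes (27.6%). This held for 3073 of the 3111 common DEGs, so that a lack of overlap adds little to a call. When the klu libraries were added to the model, 1809 common DEGs were left, 1808 of which were among the 3111. The klu plants were uneven. The root mean square log2 difference over the tested genes was 0.436 and 0.474 between klu replicate 1 and klu replicates 2 and 3. It was 0.297 between klu replicates 2 and 3. The part of klu replicate 1 in the calls lost with this model was not tested. Without 35S:KLU2 replicate 3 there were 3167 DEGs of 35S:KLU2. Leaving out any other library moved the counts of common DEGs and of the DEGs of each line by less than 1.5 times.

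**Figure D1:**
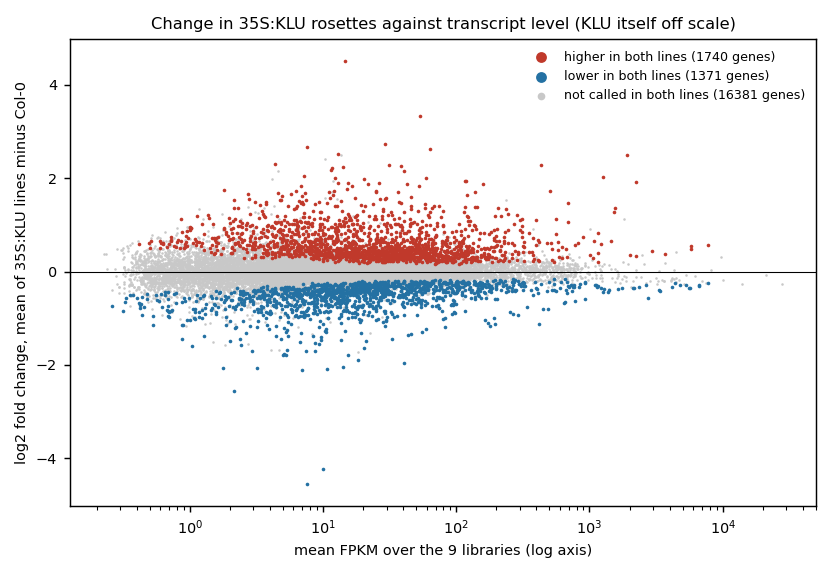
Change and level of the 19492 tested genes. The vertical axis is the mean log2 fold change of both 35S:KLU lines minus Col-0. The horizontal, logarithmic axis is the mean FPKM over the 9 libraries. Common DEGs are coloured, and KLU, at 8.39, is outside the plotted range. The 1740 higher and 1371 lower common DEGs spread over the whole range of levels, and changes of at least 1 are the minority.

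The pathogenesis-related (PR) genes, which encode secreted antimicrobial proteins, were among the strongest changes at high expression. Of 14 PR genes tested, 8 were higher and none was lower, and all 14 had a positive log2 fold change, with a median of 1.0 against 0.03 over all tested genes. PR1, the common marker of salicylic acid responses, was listed at 3002, 2048 and 2761 FPKM in the 35S:KLU1 plants and 2848, 2496 and 2639.6 FPKM in the 35S:KLU2 plants, against 328, 549.5 and 544 FPKM in Col-0. Every 35S:KLU plant was above every Col-0 plant, and PR1 rose with a log2 fold change of 2.5 (SE of 0.17, adjusted p = 7.98e-05 in 35S:KLU1 and 5.75e-05 in 35S:KLU2). PR2, a beta-1,3-glucanase of the same response, was listed at 2577, 1626 and 1645 FPKM in the 35S:KLU1 plants and 1677, 1148 and 1426 FPKM in the 35S:KLU2 plants, against 329, 431 and 443 FPKM in Col-0. Its lowest 35S:KLU plant was still well above the highest Col-0 plant, and PR2 rose with a log2 fold change of 2.04 (SE of 0.17, adjusted p = 0.000149 in 35S:KLU1 and 0.000251 in 35S:KLU2). PR5, a thaumatin-like protein gene, was at 2946 ± 775 FPKM in 35S:KLU plants (SD, n = 6) and 763 ± 141 FPKM in Col-0 (SD, n = 3), and the groups again did not overlap. PR5 was also among the 8 most abundant of all higher DEGs, and it rose by 1.93 on the log2 scale. The chitinase gene CHI averaged 585 ± 121 FPKM in 35S:KLU plants (SD, n = 6) and 119.7 ± 27.2 FPKM in Col-0 (SD, n = 3), without overlap. The 3 lipid transfer protein genes EARLI1, AZI3 and AT4G12500, which are close copies that may share fragments, rose by 1.87, 2.01 and 2.52. PDF1.2, a defensin gene of jasmonate and ethylene responses, was at 515 to 2203 FPKM in 35S:KLU plants against 179 to 1177 FPKM in Col-0, so that the groups overlapped, and it was not a DEG in either line (adjusted p = 0.652 and 0.0999). As a whole the PR genes held 0.667% to 1.12% of the FPKM sum in 35S:KLU plants and 0.166% to 0.378% in Col-0.

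Genes that make and modify salicylic acid and N-hydroxypipecolic acid, the signals of systemic resistance, were higher as well. Of 24 tested, 15 were higher and 1 was lower, and the median was 0.58. ALD1 and FMO1, which carry out the first and the last step from lysine to N-hydroxypipecolic acid, showed it with little spread. ALD1 was listed at 21.3, 22.04 and 22.3 FPKM in the 35S:KLU1 plants and 22.9, 24.96 and 22.6 FPKM in the 35S:KLU2 plants, against 5.97, 6.22 and 8.8 FPKM in Col-0, and FMO1 at 8.05, 6.6 and 7.86 FPKM in the 35S:KLU1 plants and 10.9, 12.8 and 9.59 FPKM in the 35S:KLU2 plants, against 2.17, 2.0 and 2.75 FPKM in Col-0. Neither gene overlapped between 35S:KLU and Col-0, and they rose by 1.58 (SE 0.10) and 1.62 (SE 0.11). SARD4, the reductase between them, rose by 0.92. UGT76B1, a glucosyltransferase that inactivates both signals, rose by 1.99 (SE 0.25), with 14.5 to 33.3 FPKM in 35S:KLU plants against 3.94 to 8.45 FPKM in Col-0. DLO1 and DMR6, the hydroxylases that break down salicylic acid, rose by 1.63 and 0.89. On the side of salicylic acid synthesis the changes were smaller. EDS5, the exporter of its precursor from the chloroplast, rose by 0.98, and the transcription factor genes SARD1 and CBP60G, which switch on this synthesis, rose by 0.62 and 0.70. ICS1, the main isochorismate synthase, averaged 34.6 ± 3.17 FPKM in 35S:KLU plants (SD, n = 6) and 23.5 ± 3.9 FPKM in Col-0 (SD, n = 3) and rose by 0.54, but its call ended with the klu libraries in the model (adjusted p = 0.0526). Its paralog ICS2 was the lower gene of the group, at 3.78 to 4.95 FPKM in 35S:KLU plants against 7.97 to 9.44 FPKM in Col-0 (-0.82, SE 0.09). The receptor gene NPR1 was at 31.3 to 35.3 FPKM in 35S:KLU plants against 27.4 to 30.9 FPKM in Col-0 and did not pass the test in 35S:KLU1 (adjusted p = 0.142), and EDS1, a regulator of immunity upstream of salicylic acid, did not pass there either (adjusted p = 0.0791).

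Receptor-like kinases and transcription factors of defense followed. Of 42 cysteine-rich receptor-like kinase (CRK) genes, 33 were tested, and 17 of these were higher and 1 was lower, with a median of 0.48. CRK7 was listed at 47.5, 41.1 and 41.7 FPKM in the 35S:KLU1 plants and 39.1, 30.4 and 43.7 FPKM in the 35S:KLU2 plants, against 13.9, 16.8 and 17.3 FPKM in Col-0, with no overlap, and rose by 1.28 (SE 0.11). ARCK1, a kinase gene of the same family, was 1 of 3 members that rose by more than 1, at 142 ± 13.9 FPKM in 35S:KLU plants (SD, n = 6) and 58 ± 8.36 FPKM in Col-0 (SD, n = 3). Close CRK paralogs lie side by side in the genome and may share fragments. Of 58 tested WRKY transcription factor genes, 15 were higher and 2 were lower, and the median was 0.22. WRKY8, WRKY51 and WRKY38 rose by 1.26, 1.2 and 1.0, and WRKY18 by 0.98. WRKY50 averaged 29.9 ± 3.27 FPKM in 35S:KLU plants (SD, n = 6) and 13.4 ± 6.64 FPKM in Col-0 (SD, n = 3), but its call ended with the klu libraries in the model (adjusted p = 0.124).

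WRKY factors bind the W box, searched here as TTGACC or TTGACT on either strand in the 300 bases from 250 before to 50 after the gene start. A promoter window could be taken for 19420 of the 19492 tested genes from the RefSeq annotation of TAIR10.1. The W box was in 42.8% of the 1737 windows of higher DEGs, in 28.2% of the 1368 windows of lower DEGs and in 32.6% of all windows. Among the 33 tested CRK genes, 21 windows held it (63.6%). The other defense lists described so far had lower shares, 42.9% for the PR genes and 37.9% for the WRKY genes. For the genes of salicylic acid and N-hydroxypipecolic acid it was 20.8%, below the share of all windows. The stretches of CRK37 (chr4:2238260-2238359, plus strand, 110 to 11 bases before the start) and GSTF7 (chr1:660011-660150, minus strand, 170 to 31 bases before the start) are given because they hold 2 and 3 copies, shown in capitals on whichever strand they lie, and the copies of CRK37 share a base. A match describes the letters and is no evidence of binding.
CRK37: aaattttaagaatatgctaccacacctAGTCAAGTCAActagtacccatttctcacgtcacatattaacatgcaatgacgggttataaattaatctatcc
GSTF7: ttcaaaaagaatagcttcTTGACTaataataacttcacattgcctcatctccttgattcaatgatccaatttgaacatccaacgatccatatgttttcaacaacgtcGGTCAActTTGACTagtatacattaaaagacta
CRK37 was at 10.8 to 14.1 FPKM in 35S:KLU plants against 5.05 to 7.34 FPKM in Col-0 and rose by 0.95 (SE 0.11), without overlap of the groups.

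The genes of camalexin, the main phytoalexin of Arabidopsis, moved with the defense genes. Of 21 tested genes of camalexin and indole glucosinolate synthesis, 9 were higher and 1 was lower, and the median was 0.24. CYP71A13, which converts indole-3-acetaldoxime on the way to camalexin, was listed at 35.5, 56.4 and 42.1 FPKM in the 35S:KLU1 plants and 54.4, 64.7 and 78.4 FPKM in the 35S:KLU2 plants, against 10.7, 12.6 and 10.7 FPKM in Col-0. The lowest 35S:KLU plant was far above the highest Col-0 plant, and CYP71A13 rose with a log2 fold change of 2.15 (SE of 0.14, adjusted p = 0.000157 in 35S:KLU1 and 2.65e-05 in 35S:KLU2). PAD3, the last enzyme of the pathway, averaged 69.1 ± 23.3 FPKM in 35S:KLU plants (SD, n = 6) and 18.1 ± 3.82 FPKM in Col-0 (SD, n = 3) and rose by 1.83. GSTF6, a glutathione S-transferase assigned to the same pathway, rose by 1.46, and CYP71A12, a close copy of CYP71A13 that may share its fragments, rose by 1.03. CYP79B2, the entry enzyme from tryptophan, rose by 0.59. Among the MYB regulators, MYB122 rose by 1.02 at a low level (1.38 to 3.18 FPKM in 35S:KLU plants against 0.33 to 0.61 FPKM in Col-0), and MYB34, a regulator of indole glucosinolates, fell by 0.66 on the log2 scale. In contrast, none of the 18 tested genes of aliphatic glucosinolate synthesis was higher and 4 were lower, and all 18 had a negative log2 fold change (median -0.26). The count of lower genes was 2 without any 1 of the 35S:KLU1 plants or Col-0 replicate 2 and 8 without 35S:KLU2 replicate 2. The largest of these, IPMI2 of side chain elongation, was at 119 to 144 FPKM in 35S:KLU plants against 153 to 200.4 FPKM in Col-0 and fell by 0.44.

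Glutathione S-transferases (GSTs), which conjugate glutathione to electrophilic compounds, were higher in 13 of 40 tested genes and lower in 1, with a median of 0.26. GSTU4 was listed at 46.6, 50.9 and 38.7 FPKM in the 35S:KLU1 plants and 50.8, 54.4 and 76.2 FPKM in the 35S:KLU2 plants, against 9.9, 8.93 and 11.2 FPKM in Col-0. The groups were clearly apart, and GSTU4 rose with a log2 fold change of 2.27 (SE of 0.13, adjusted p = 5.16e-05 in 35S:KLU1 and 1.52e-05 in 35S:KLU2). GSTU8 and GSTU10 of the same tau class rose by 2.01 and 1.73, and GSTF7 of the phi class, whose promoter stretch is given above, was at 536 to 816 FPKM in 35S:KLU plants against 170.3 to 234 FPKM in Col-0 and rose by 1.73. GSTF6 and GSTF7 are close copies and may share fragments. The family as a whole held 0.786% to 0.893% of the FPKM sum in 35S:KLU plants and 0.517% to 0.604% in Col-0.

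**Figure D2:**
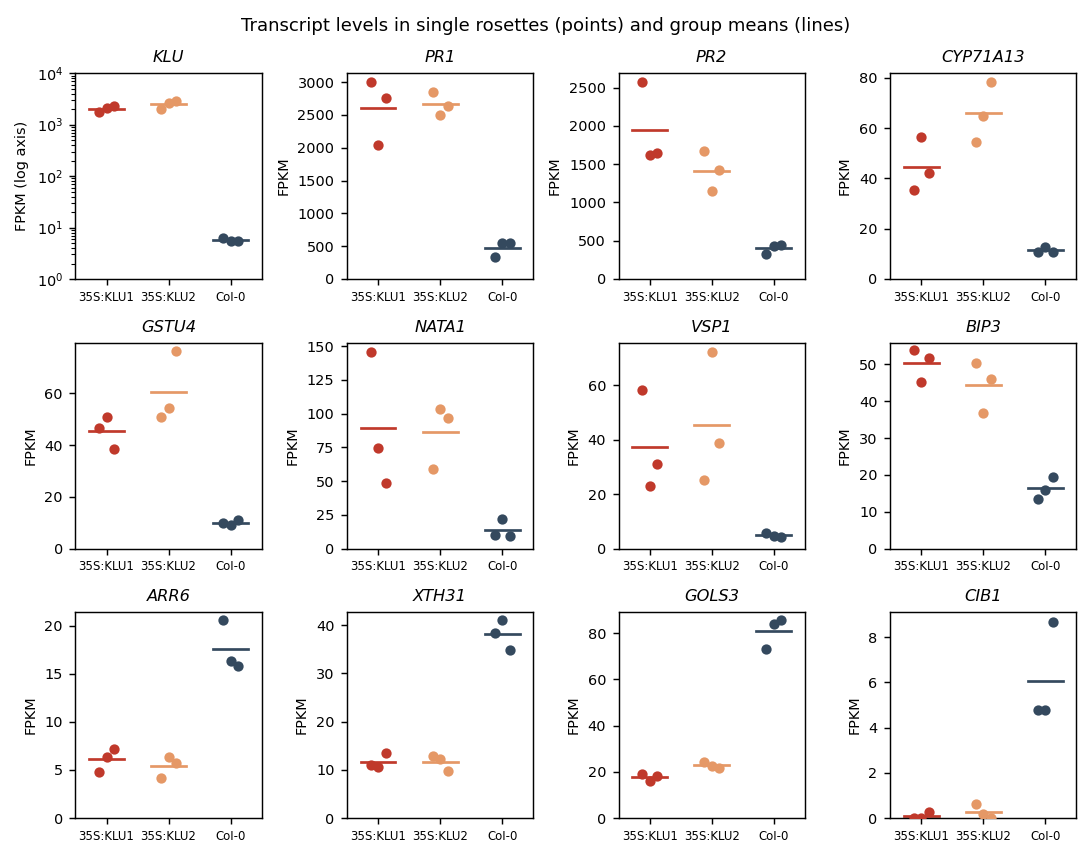
FPKM of 12 genes in each plant of 35S:KLU1, 35S:KLU2 and Col-0 (3 points each, bars at the group means, logarithmic axis for KLU). In each of the 12 genes, which were picked from those described in the text, the 6 35S:KLU plants lie on one side of the 3 Col-0 plants. Genes with the largest changes could be named only where the groups did not overlap, so that this was partly fixed by the choice. Over all tested genes 27.6% had no overlap.

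Protein folding in the endoplasmic reticulum (ER), where secreted proteins such as PR1 mature, was the list with the largest share of higher genes. Of 28 tested members, 23 were higher (82.1%, against 8.93% of all tested genes) and none was lower, and the median log2 fold change was 0.67. BIP3, the stress-inducible ER form of HSP70, was listed at 53.9, 45.4 and 51.7 FPKM in the 35S:KLU1 plants and 50.3, 36.7 and 46.04 FPKM in the 35S:KLU2 plants, against 13.6, 15.99 and 19.4 FPKM in Col-0. It separated the groups in every plant and rose with a log2 fold change of 1.48 (SE of 0.12, adjusted p = 0.000149 in 35S:KLU1 and 0.000191 in 35S:KLU2). BIP1, an abundant form, averaged 471 ± 38.2 FPKM in 35S:KLU plants (SD, n = 6) and 294 ± 19.2 FPKM in Col-0 (SD, n = 3). BIP2, a near copy of BIP1 that may share its fragments, averaged 364 ± 31.01 FPKM in 35S:KLU plants (SD, n = 6) and 203 ± 10.6 FPKM in Col-0 (SD, n = 3). They rose by 0.68 and 0.84. The protein disulfide isomerase gene PDI6 averaged 242 ± 25.02 FPKM in 35S:KLU plants (SD, n = 6) and 106 ± 20.1 FPKM in Col-0 (SD, n = 3) and rose by 1.2, PDI5 by 0.97 and PDIL2-2 by 1.02. ERDJ3A, a J-domain partner of BiP, averaged 13.5 ± 0.994 FPKM in 35S:KLU plants (SD, n = 6) and 5.49 ± 0.885 FPKM in Col-0 (SD, n = 3). SHD, the ER form of HSP90, rose by 0.81, the lectin chaperone gene CNX1 by 0.64, and the calreticulin genes CRT1A and CRT3 by 0.53 and 0.61. BZIP60, a transcription factor gene of the unfolded protein response, was at 100.2 to 128 FPKM in 35S:KLU plants against 75.8 to 82.6 FPKM in Col-0 and rose by 0.55. BZIP28, the second such factor, was at 19.8 to 23.1 FPKM in 35S:KLU plants against 17.6 to 18.9 FPKM in Col-0 and did not pass the test in 35S:KLU1 (adjusted p = 0.0604). The count of higher members lay between 22 and 24 under every alternative that was run.

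The G box CACGTG, part of the ER stress element bound by bZIP factors, was in 46.4% of the promoter windows of these 28 genes (13 windows) and in 8.85% of all windows. It was also in 35.6% of the windows of the light harvesting and photosystem genes, none of which was higher. The stretches of BIP3 (chr1:2931961-2932060, minus strand, 210 to 111 bases before the start) and PDI6 (chr1:29126508-29126627, plus strand, 140 to 21 bases before the start) are printed as the members with the largest changes, with the G box in capitals.
BIP3: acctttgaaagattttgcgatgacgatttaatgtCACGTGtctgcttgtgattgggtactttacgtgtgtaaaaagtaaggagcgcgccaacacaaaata
PDI6: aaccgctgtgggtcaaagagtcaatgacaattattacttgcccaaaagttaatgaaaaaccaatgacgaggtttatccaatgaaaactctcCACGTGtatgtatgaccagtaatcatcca
Other chaperones and the protein degradation machinery had smaller changes. Proteasome subunits were higher in 18 of 40 tested genes and lower in none, with 37 of 40 log2 fold changes positive and a median of 0.24. The alpha subunit gene PAA2 (AT2G05840) was at 122 to 154 FPKM in 35S:KLU plants against 88.96 to 99.9 FPKM in Col-0, and PAD1 was at 129 to 143 FPKM in 35S:KLU plants against 96.5 to 107 FPKM in Col-0. They rose by 0.51 and 0.42. With the klu libraries in the model 4 proteasome genes were left as higher, and without 35S:KLU1 replicate 1, 2 or 3 or Col-0 replicate 2 there were 11, 10, 9 and 11. The median of the list lay between 0.21 and 0.27 under the alternatives that were run. Of 24 tested heat shock protein genes, 7 were higher and none was lower, and 3 or 4 were left as higher without 35S:KLU2 replicate 1 or 3, without Col-0 replicate 2 or 3, with median-of-ratios scaling or with the klu libraries in the model. HSP17.6A, a small cytosolic heat shock protein, was uneven among the plants, at 1.07, 11.7 and 14.1 FPKM in the 35S:KLU1 plants and 3.94, 4.11 and 3.79 FPKM in the 35S:KLU2 plants, against 0.35, 0.33 and 0 FPKM in Col-0. It passed the 0.5 FPKM limit through the 35S:KLU plants alone, so that a higher level there was a condition of being tested. Its call ended in 7 of 17 alternatives (with no filter on low values, without 35S:KLU2 replicate 1, 2 or 3 or Col-0 replicate 1, 2 or 3, adjusted p up to 0.0772). Ribosomal protein genes had 15 of 256 tested genes higher, 4 lower and a median of 0.05, with called shares below those of all tested genes. The 15 higher genes became 4 with the klu libraries in the model and 7 to 9 without 35S:KLU1 replicate 2 or 3 or Col-0 replicate 2.

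Large changes outside the defense lists were found in jasmonate-inducible storage protein genes and in genes that use arginine and ornithine. VSP1, a vegetative storage protein with acid phosphatase activity, was listed at 58.2, 22.9 and 31.1 FPKM in the 35S:KLU1 plants and 25.1, 72.3 and 38.95 FPKM in the 35S:KLU2 plants, against 5.82, 4.43 and 4.31 FPKM in Col-0. All Col-0 plants were below the lowest 35S:KLU plant, although the 35S:KLU plants spread widely, and VSP2, a near copy that may share fragments, gave the same order of groups, with 26.7 to 73.8 FPKM in 35S:KLU plants against 5.66 to 9.49 FPKM in Col-0. Jasmonate genes as a list were mixed, with 5 higher and 2 lower of 31 tested and a median of 0.03, which lay between -0.01 and 0.09 under the alternatives. There were 2 higher genes without 35S:KLU1 replicate 1 or 2 or Col-0 replicate 1, and 3 without 35S:KLU2 replicate 3 or Col-0 replicate 3. LOX2 of jasmonate synthesis was at 779.7 to 1147 FPKM in 35S:KLU plants against 511 to 697 FPKM in Col-0 and rose by 0.60, but its call ended in 3 of 18 alternatives (without 35S:KLU1 replicate 1 or 2 or Col-0 replicate 1, adjusted p up to 0.0709). AOS, the next enzyme, averaged 213 ± 19.4 FPKM in 35S:KLU plants (SD, n = 6) and 218 ± 25.7 FPKM in Col-0 (SD, n = 3) and was no DEG. JMT, which methylates jasmonate, was at 0.35 to 1.12 FPKM in 35S:KLU plants against 1.71 to 2.41 FPKM in Col-0 and fell by 0.86. ORA47, an AP2/ERF transcription factor gene that activates jasmonate synthesis, was listed at 2.92, 2.3 and 1.23 FPKM in the 35S:KLU1 plants and 3.29, 2.52 and 3.13 FPKM in the 35S:KLU2 plants, against 21.8, 18.8 and 6.46 FPKM in Col-0. Its 3 Col-0 plants differed widely among themselves but all lay above the 35S:KLU plants.

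NATA1, which acetylates ornithine, was listed at 146, 74.4 and 48.7 FPKM in the 35S:KLU1 plants and 58.7, 103 and 96.98 FPKM in the 35S:KLU2 plants, against 9.81, 21.7 and 9.21 FPKM in Col-0. The Col-0 plants were all below the lowest 35S:KLU plant. ARGAH2, an arginase that releases ornithine from arginine, averaged 266 ± 29.6 FPKM in 35S:KLU plants (SD, n = 6) and 115 ± 16.4 FPKM in Col-0 (SD, n = 3) and rose by 1.2 (SE 0.11), without overlap. ADC2, an arginine decarboxylase of putrescine synthesis, rose by 0.66, and NAOD, which deacetylates N-acetylornithine, by 0.47. PRODH1 (ERD5 in the annotation), the mitochondrial enzyme that degrades proline, was at 1.62 to 3.3 FPKM in 35S:KLU plants against 4.07 to 5.75 FPKM in Col-0 and fell by 0.80. P5CS1, which makes proline from glutamate, was at 182 to 301 FPKM in 35S:KLU plants against 189 to 234 FPKM in Col-0. Its paralog P5CS2 was at 77.9 to 102 FPKM in 35S:KLU plants against 65.6 to 77.7 FPKM in Col-0. Neither was a DEG of both lines (adjusted p = 0.43 and 0.0645 in 35S:KLU1), and the ornithine aminotransferase gene DELTA-OAT averaged 24.1 ± 2.42 FPKM in 35S:KLU plants (SD, n = 6) and 23.4 ± 2.68 FPKM in Col-0 (SD, n = 3). In all, 5 of the 16 tested genes of proline, ornithine and arginine metabolism were higher and 2 were lower (1 without 35S:KLU2 replicate 1 or 3 or Col-0 replicate 2 or 3).

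Every type-A response regulator (ARR) that was tested was lower in both 35S:KLU lines. These genes are primary targets of cytokinin and encode proteins that dampen its signal, and 8 of the 10 members listed passed the filter. ARR6 was listed at 4.75, 6.39 and 7.19 FPKM in the 35S:KLU1 plants and 4.14, 6.4 and 5.69 FPKM in the 35S:KLU2 plants, against 20.6, 16.3 and 15.8 FPKM in Col-0. The 35S:KLU plants were all below the Col-0 plants, and ARR6 changed with a log2 fold change of -1.47 (SE of 0.14, adjusted p = 0.000512 in 35S:KLU1 and 0.000254 in 35S:KLU2). ARR5 averaged 6.16 ± 0.504 FPKM in 35S:KLU plants (SD, n = 6) and 15.5 ± 3.3 FPKM in Col-0 (SD, n = 3), and ARR7 averaged 20.2 ± 2.04 FPKM in 35S:KLU plants (SD, n = 6) and 46.7 ± 7.2 FPKM in Col-0 (SD, n = 3). ARR4, the most abundant member, was listed at 79.4, 84.5 and 80.8 FPKM in the 35S:KLU1 plants and 84.7, 80.3 and 74.2 FPKM in the 35S:KLU2 plants, against 129.7, 118 and 125 FPKM in Col-0. Its groups were narrow and did not overlap, and it fell by 0.61 on the log2 scale. ARR15, ARR16 and ARR9 fell by 1.38, 0.97 and 0.74, and ARR8 by 0.29, but its call ended in 10 of 18 alternatives (with the klu libraries in the model, with each line alone with Col-0, with no filter on low values, with a replicate block, without 35S:KLU1 replicate 3 or 35S:KLU2 replicate 1 or 3 or Col-0 replicate 1, 2 or 3, adjusted p up to 0.13). Summed over the list, type-A ARRs reached 137.6 to 147.8 FPKM in 35S:KLU plants and 244 to 278 FPKM in Col-0, and the median log2 fold change was -1.07. Of the 6 tested type-B ARRs, the transcription factors that carry the signal, 16.7% were called, against 16.0% of all tested genes. Among them 1 was lower and none was higher. That gene, ARR10, fell by 0.26, but its call ended in 9 of 18 alternatives (with the klu libraries in the model, with each line alone with Col-0, without 35S:KLU1 replicate 1 or 2 or 35S:KLU2 replicate 1 or 2 or Col-0 replicate 1, 2 or 3, adjusted p up to 0.157). ARR1, ARR2 and ARR12 had log2 fold changes of -0.05, 0.11 and -0.07.

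Genes that make, degrade and perceive cytokinin were mixed, with 3 higher (1 without 35S:KLU1 replicate 3) and 6 lower of 26 tested and a median of -0.15. With the klu libraries in the model 1 was higher and 3 were lower, and without Col-0 replicate 1 or 2 the median was -0.094 and -0.087. IPT3, an isopentenyltransferase that starts cytokinin synthesis in the phloem, was listed at 12.6, 14.6 and 15.1 FPKM in the 35S:KLU1 plants and 14.8, 13.9 and 16.6 FPKM in the 35S:KLU2 plants, against 27.1, 26.7 and 22.1 FPKM in Col-0. It was lower in every 35S:KLU plant and fell by 0.75 (SE 0.09). LOG7, which releases active cytokinin, rose by 0.58 at 4.0 to 4.55 FPKM in 35S:KLU plants against 2.05 to 2.97 FPKM in Col-0. CKX1, a cytokinin oxidase, was listed at 1.34, 1.32 and 0.97 FPKM in the 35S:KLU1 plants and 1.36, 1.25 and 1.37 FPKM in the 35S:KLU2 plants, against 3.11, 3.17 and 2.54 FPKM in Col-0, without overlap, and fell by 0.80. CKX4 was at 5.51 to 8.02 FPKM in 35S:KLU plants against 8.84 to 9.97 FPKM in Col-0 and fell by 0.46, but its call ended in 7 of 18 alternatives (with the klu libraries in the model, with a replicate block, without 35S:KLU1 replicate 1 or 3 or Col-0 replicate 1, 2 or 3, adjusted p up to 0.119). UGT76C2, a cytokinin glucosyltransferase, fell by 0.73. Among the receptor genes AHK4 fell by 0.52, but its call ended with the klu libraries in the model (adjusted p = 0.0785), while AHK2 and AHK3 had log2 fold changes of -0.01 and 0.02. AHP4, the gene of a phosphotransfer protein, was listed at 28.7, 26.6 and 34.97 FPKM in the 35S:KLU1 plants and 33.2, 38.99 and 43.6 FPKM in the 35S:KLU2 plants, against 4.96, 13.4 and 18.8 FPKM in Col-0. The Col-0 plants were spread, with 4.96 FPKM in the lowest, and all lay below the 35S:KLU plants, but its call ended in 2 of 18 alternatives (with the klu libraries in the model, without 35S:KLU1 replicate 3, adjusted p up to 0.172). Among the paralogs of KLU, CYP78A6, CYP78A8 and CYP78A9 fell by 0.66, 0.97 and 0.81. CYP78A8 was listed at 0.08 to 0.43 FPKM in 35S:KLU plants against 1.38 to 1.78 FPKM in Col-0, so that it passed the 0.5 FPKM limit through Col-0 alone, and without any 1 Col-0 plant it was not tested. Regulators of organ size and of the shoot meristem were near the background, with 2 of 26 tested higher and 1 lower. Leaving out 1 library gave 1 to 2 higher and 0 to 2 lower genes. GRF7 (AT5G53660), a growth-regulating factor, rose by 1.2, at 4.64 ± 0.711 FPKM in 35S:KLU plants (SD, n = 6) and 1.45 ± 0.214 FPKM in Col-0 (SD, n = 3), whereas ANT and GIF1 had log2 fold changes of -0.10 and -0.07 and were no DEGs.

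**Figure D3:**
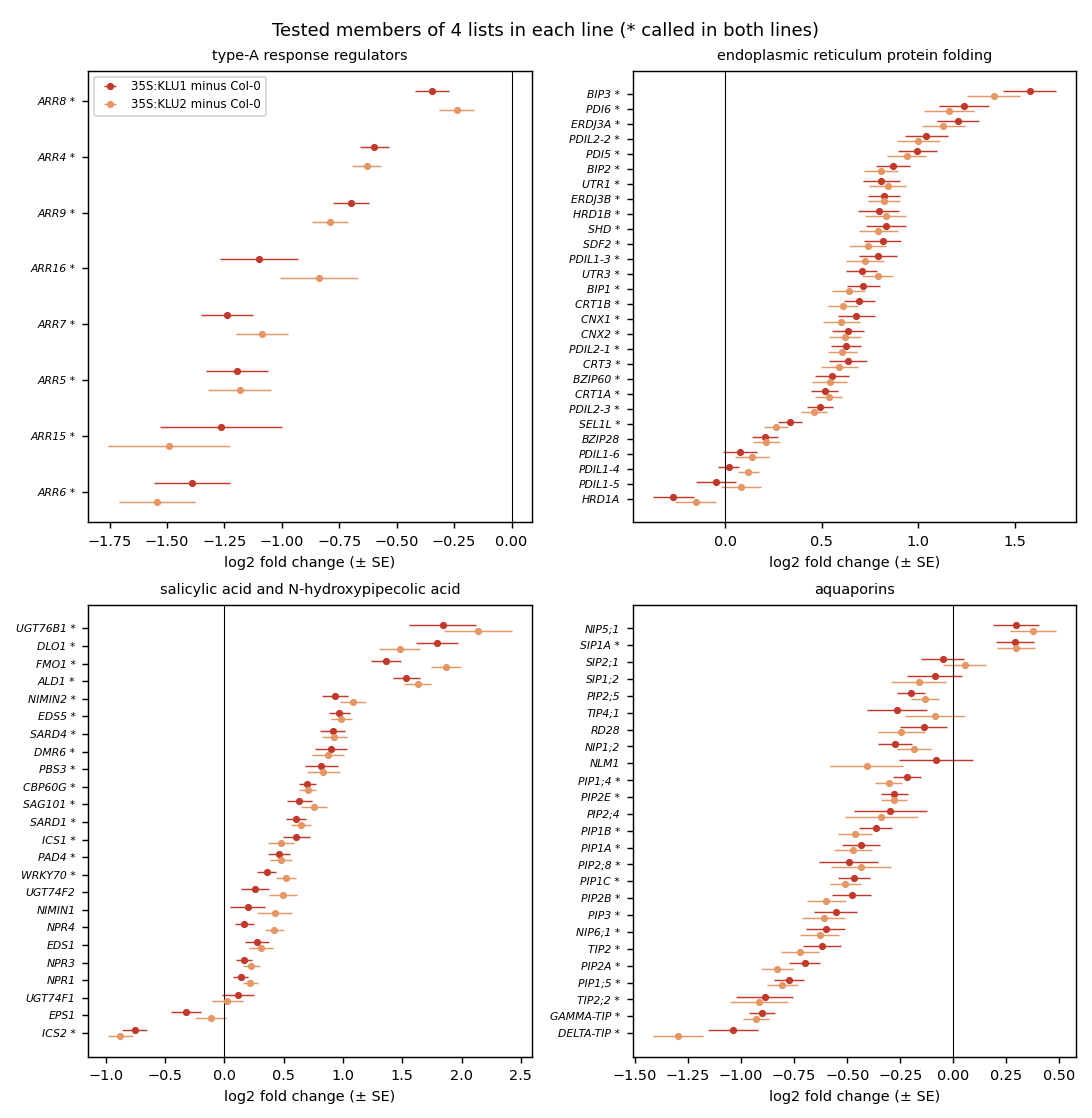
Log2 fold change of each 35S:KLU line minus Col-0, with standard errors, for the tested type-A response regulators, ER protein folding genes, salicylic acid and N-hydroxypipecolic acid genes and aquaporins, with common DEGs marked by an asterisk. The lines lie close together for most genes, all 8 type-A response regulators are below 0, and 27 of 28 ER genes are above 0.

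Cell wall loosening, auxin response and water channel genes, which accompany the expansion of cells, had more lower than higher members in 35S:KLU rosettes. Of 41 tested expansins and xyloglucan endotransglucosylases (XTHs), 19 were lower and 2 were higher, with a median of -0.34. XTH31 was listed at 11.02, 10.5 and 13.5 FPKM in the 35S:KLU1 plants and 12.8, 12.2 and 9.79 FPKM in the 35S:KLU2 plants, against 38.4, 41.1 and 34.8 FPKM in Col-0. The groups lay far apart, and XTH31 changed with a log2 fold change of -1.63 (SE of 0.10, adjusted p = 4.85e-05 in 35S:KLU1 and 3.15e-05 in 35S:KLU2). XTH15 was at 0.46 to 1.56 FPKM in 35S:KLU plants against 5.32 to 10.6 FPKM in Col-0 and fell by 2.07, TCH4, an XTH gene induced by touch, fell by 1.47, and EXPA8 and EXPA11 fell by 1.36 and 0.96. XTH10 was the largest exception, at 11.95 ± 3.7 FPKM in 35S:KLU plants (SD, n = 6) and 4.68 ± 1.0 FPKM in Col-0 (SD, n = 3), and rose by 1.16, but its call ended without Col-0 replicate 2 (adjusted p = 0.0563). Of 54 tested SAUR genes, small auxin-induced RNAs of which many promote cell expansion, 14 were lower (9 without Col-0 replicate 3) and 3 were higher. SAUR22 was listed at 2.39, 2.88 and 2.51 FPKM in the 35S:KLU1 plants and 2.01, 2.87 and 1.96 FPKM in the 35S:KLU2 plants, against 10.2, 10.4 and 12.1 FPKM in Col-0. All 35S:KLU plants were far below the lowest Col-0 plant, and SAUR22 changed with a log2 fold change of -1.8 (SE of 0.11, adjusted p = 4.85e-05 in 35S:KLU1 and 2.33e-05 in 35S:KLU2). AT1G29500 of the same family fell by 1.51, and SAUR41 was the member that rose most, by 1.03. Neighbouring SAUR genes are near copies that may share fragments. Among 24 tested Aux/IAA repressors of auxin signaling, 5 were lower (3 without 35S:KLU1 replicate 1, Col-0 replicate 2 or Col-0 replicate 3) and none was higher, with IAA7 at 41.3 to 49.4 FPKM in 35S:KLU plants against 66.1 to 72.4 FPKM in Col-0 and IAA1 at 13.6 to 17.9 FPKM in 35S:KLU plants against 22.1 to 28.4 FPKM in Col-0.

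Aquaporins were lower in 15 of 25 tested genes and higher in 1, and the median was -0.41. No aquaporin was left as higher without 35S:KLU1 replicate 1 or 2, 35S:KLU2 replicate 1 or 3 or Col-0 replicate 1. GAMMA-TIP, a channel of the vacuolar membrane, was listed at 212, 211 and 199.7 FPKM in the 35S:KLU1 plants and 207, 204 and 199 FPKM in the 35S:KLU2 plants, against 393, 357 and 416 FPKM in Col-0. The 35S:KLU plants spanned a narrow range well below the Col-0 plants, and GAMMA-TIP changed with a log2 fold change of -0.92 (SE of 0.05, adjusted p = 4.42e-05 in 35S:KLU1 and 2.33e-05 in 35S:KLU2). DELTA-TIP and TIP2;2, of the same membrane, fell by 1.17 and 0.90. PIP2A, of the plasma membrane, averaged 274 ± 23.1 FPKM in 35S:KLU plants (SD, n = 6) and 466 ± 17.4 FPKM in Col-0 (SD, n = 3) and fell by 0.77. PIP1;5 of the same membrane averaged 59.9 ± 2.24 FPKM in 35S:KLU plants (SD, n = 6) and 104.5 ± 10.2 FPKM in Col-0 (SD, n = 3) and fell by 0.79. In sum, aquaporins reached 2459 to 2902 FPKM in 35S:KLU plants and 3972 to 4316 FPKM in Col-0.

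Several regulators of cold and drought responses were lower. Of 28 tested cold and dehydration genes, 7 were lower and 1 was higher, and the median was -0.18. Without Col-0 replicate 1 the median was -0.33, and without 35S:KLU1 replicate 2 it was -0.11. The 1 higher gene was left as no DEG without 35S:KLU1 replicate 1 or 3 or Col-0 replicate 2 or 3, and with the klu libraries in the model. CBF1, CBF2 and CBF3, neighbouring transcription factor genes that switch on cold-regulated genes, fell by 1.53, 1.3 and 0.69, and as near copies they may share fragments. CBF1 was listed at 5.49, 3.87 and 3.71 FPKM in the 35S:KLU1 plants and 5.81, 4.93 and 5.52 FPKM in the 35S:KLU2 plants, against 19.7, 17.4 and 11.4 FPKM in Col-0, without overlap. Of the genes they regulate, GOLS3, a galactinol synthase of the raffinose pathway, was listed at 19.1, 16.1 and 18.1 FPKM in the 35S:KLU1 plants and 24.3, 22.6 and 21.7 FPKM in the 35S:KLU2 plants, against 72.99, 83.8 and 85.5 FPKM in Col-0. It had the smallest adjusted p of the list and changed with a log2 fold change of -1.95 (SE of 0.07, adjusted p = 5.92e-07 in 35S:KLU1 and 2.1e-06 in 35S:KLU2). COR47, a dehydrin, averaged 392.5 ± 59.5 FPKM in 35S:KLU plants (SD, n = 6) and 682 ± 86.2 FPKM in Col-0 (SD, n = 3) and fell by 0.80. COR15A was at 1494 to 2182 FPKM in 35S:KLU plants against 1993 to 2648 FPKM in Col-0 and KIN1 at 115 to 202 FPKM in 35S:KLU plants against 132 to 187 FPKM in Col-0, and neither was a common DEG. CBF proteins bind the core CCGAC, which 32.1% of the promoter windows of these 28 genes held on either strand (9 windows), against 16.4% of all windows. This core was not particular to the cold genes, since 41.7% of the windows of the Aux/IAA repressors held it (10 windows). The stretch of GOLS3 (chr1:3019399-3019498, plus strand, 240 to 141 bases before the start) is given as that of the gene with the largest fall, with its 2 cores, here on the opposite strand as GTCGG, in capitals.
GOLS3: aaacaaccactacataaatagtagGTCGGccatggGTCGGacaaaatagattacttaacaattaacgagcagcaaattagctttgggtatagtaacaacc
Among 35 tested genes of abscisic acid, 17.1% were called, against 16.0% of all tested genes. Of these 35 genes, 2 were higher (1 without 35S:KLU1 replicate 1 or 3 or Col-0 replicate 2) and 4 were lower (2 without Col-0 replicate 1 or 2). The median was 0.06, and leaving out 1 library moved it to as little as 0.005 (without Col-0 replicate 1), and to 0.018 to 0.039 without 35S:KLU1 replicate 1, 35S:KLU2 replicate 1 or 3 or Col-0 replicate 2. NCED3, the rate-limiting enzyme of its synthesis under drought, was listed at 2.99, 2.06 and 2.77 FPKM in the 35S:KLU1 plants and 2.37, 1.82 and 2.96 FPKM in the 35S:KLU2 plants, against 11.3, 8.32 and 5.38 FPKM in Col-0, without overlap, and fell by 1.38. ABA1, the zeaxanthin epoxidase of the same pathway, fell by 0.56. ABCG40, an importer of abscisic acid in the plasma membrane, was listed at 29.3, 28.01 and 25.8 FPKM in the 35S:KLU1 plants and 29.1, 31.3 and 29.6 FPKM in the 35S:KLU2 plants, against 7.37, 6.05 and 7.9 FPKM in Col-0. It was higher in every 35S:KLU plant and rose with a log2 fold change of 1.88 (SE of 0.08, adjusted p = 4.49e-06 in 35S:KLU1 and 2.1e-06 in 35S:KLU2).

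Photosynthesis genes included many that were slightly lower. Of 45 tested genes of light harvesting and photosystem subunits, 16 were lower and none was higher, 44 of 45 had a negative log2 fold change, and the median was -0.21. Together they took 15.5% to 17.6% of the FPKM sum in 35S:KLU plants and 19.2% to 20.1% in Col-0. LHCB2.1, an antenna protein gene of photosystem II, was listed at 2943, 3279 and 3214 FPKM in the 35S:KLU1 plants and 3007, 3106 and 2811 FPKM in the 35S:KLU2 plants, against 3967, 3954 and 4305 FPKM in Col-0, without overlap, and fell by 0.41 (SE 0.06). In the Calvin cycle and photorespiration, 16 of 29 tested genes were lower and none was higher, and the median was -0.27. RCA, the activase of Rubisco, was listed at 2184, 2595 and 2431 FPKM in the 35S:KLU1 plants and 2415, 2386 and 2224 FPKM in the 35S:KLU2 plants, against 3547, 3476 and 3538 FPKM in Col-0. It had the largest fall of the list, 0.57 on the log2 scale (SE 0.06), while SBPASE and GLDP1, of carbon fixation and of photorespiration, fell by 0.39 and 0.45. RBCS1A, a small subunit of Rubisco and the most abundant of the mesophyll markers, was at 19400.5 to 22469 FPKM in 35S:KLU plants against 20934 to 22992 FPKM in Col-0 and was no DEG (adjusted p = 0.573 and 0.506). With the klu libraries in the model the lower genes were 2 of the 45 and 8 of the 29. Leaving out 1 library moved these counts as well, to between 6 (without 35S:KLU2 replicate 3) and 10 (without Col-0 replicate 1) of the 45 for 6 of the 9 libraries, which were replicates 1 and 3 of each genotype, and to 10 of the 29 without 35S:KLU2 replicate 3. In nitrogen uptake and assimilation, 6 of 29 tested genes were lower and 2 were higher (1 without 35S:KLU1 replicate 2, 35S:KLU2 replicate 1 or 3 or Col-0 replicate 2). The nitrate transporter gene NRT1.1 and the glutamine synthetase gene GLN1;4 fell by 0.87 and 1.24, and the ammonium transporter gene AMT1;1 rose by 0.53. Sugar transport and cleavage had 4 higher (2 without 35S:KLU1 replicate 3, 35S:KLU2 replicate 1 or 3 or Col-0 replicate 1) and 3 lower genes of 31 tested, among them the cell wall invertase gene ATBFRUCT1, which rose by 0.58.

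SAG12, a cysteine protease gene that is expressed in senescing leaves, had the largest fall of all common DEGs that averaged 1 FPKM or more, did not overlap between the groups and were above 0 in some plant of each group. It was listed at 0.35, 0 and 0.07 FPKM in the 35S:KLU1 plants and 0, 0 and 0.8 FPKM in the 35S:KLU2 plants, against 36.1, 47.1 and 5.11 FPKM in Col-0. In 3 of the 6 35S:KLU plants it was listed at 0, and Col-0 replicate 3 was far below the other Col-0 plants but above all 35S:KLU plants, with a log2 fold change of -4.24 (SE of 0.54, adjusted p = 0.00144 in 35S:KLU1 and 0.00131 in 35S:KLU2). In the klu plants, which the comparison did not use, SAG12 was listed at 0, 0 and 0 FPKM, so that its low level was not particular to 35S:KLU. The senescence list as a whole did not follow SAG12, since 6 of 23 tested were higher, 4 were lower and the median was -0.01, between -0.07 and 0.05 under the alternatives. JUB1, a NAC factor that delays senescence, was listed at 17.4, 19.7 and 15.8 FPKM in the 35S:KLU1 plants and 18.5, 17.04 and 18.1 FPKM in the 35S:KLU2 plants, against 5.45, 5.56 and 5.52 FPKM in Col-0. It was about equal within each group and rose with a log2 fold change of 1.52 (SE of 0.07, adjusted p = 1.06e-05 in 35S:KLU1 and 6.41e-06 in 35S:KLU2). YLS9, SAG13 and SAG21, which are also induced in defense and oxidative stress, rose by 1.73, 1.28 and 1.23. DIN1 and DIN10, induced by darkness and sugar starvation, fell by 0.87 and 1.0. NYE1 and PAO of chlorophyll breakdown had log2 fold changes of -0.15 and -0.02.

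Of 19 tested genes of flavonoid and anthocyanin synthesis, 5 were higher and 1 was lower, and the median was 0.26, which moved to 0.08 without Col-0 replicate 1. DFR, an enzyme on the way to anthocyanins, was listed at 43.4, 40.5 and 37.2 FPKM in the 35S:KLU1 plants and 33.1, 50.8 and 45.6 FPKM in the 35S:KLU2 plants, against 12.9, 27 and 17.7 FPKM in Col-0. The highest Col-0 plant, replicate 2, lay close to the lowest 35S:KLU plant, and its call ended with the klu libraries in the model (adjusted p = 0.215). With the klu libraries in the model no flavonoid gene was left as higher, and without 35S:KLU1 replicate 1, Col-0 replicate 1 or Col-0 replicate 3 there were 3. Without Col-0 replicate 2 the median of the list was 0.47. Of 26 tested flowering time genes, 1 was higher and 3 were lower (15.4% called, against 16.0% of all tested genes). CIB1, a transcription factor that promotes flowering through cryptochrome, was listed at 0, 0 and 0.26 FPKM in the 35S:KLU1 plants and 0.61, 0.2 and 0 FPKM in the 35S:KLU2 plants, against 4.79, 4.77 and 8.66 FPKM in Col-0, and AGL42, a MADS box gene, at 0.55 to 1.09 FPKM in 35S:KLU plants against 2.67 to 5.45 FPKM in Col-0. Both were lower in every 35S:KLU plant, by 2.56 and 1.49 on the log2 scale, while SOC1 and FLC had log2 fold changes of -0.03 and 0.49 and were no DEGs. Of 22 clock genes, 1 was higher and 2 were lower (13.6% called, against 16.0% of all tested genes). Neither CCA1 nor LHY, the paired transcription factors of the morning, was a DEG. CCA1 averaged 5.3 ± 0.388 FPKM in 35S:KLU plants (SD, n = 6) and 5.96 ± 0.858 FPKM in Col-0 (SD, n = 3), and LHY averaged 1.9 ± 0.372 FPKM in 35S:KLU plants (SD, n = 6) and 1.98 ± 0.52 FPKM in Col-0 (SD, n = 3). Among 21 tested CC-type glutaredoxins, AT3G21460 fell by 1.7 and AT1G03850 rose by 1.47, in a list with 2 higher genes and 1 lower gene. Called members made up 14.3% of this list, against 16.0% of all tested genes.

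**Figure D4:**
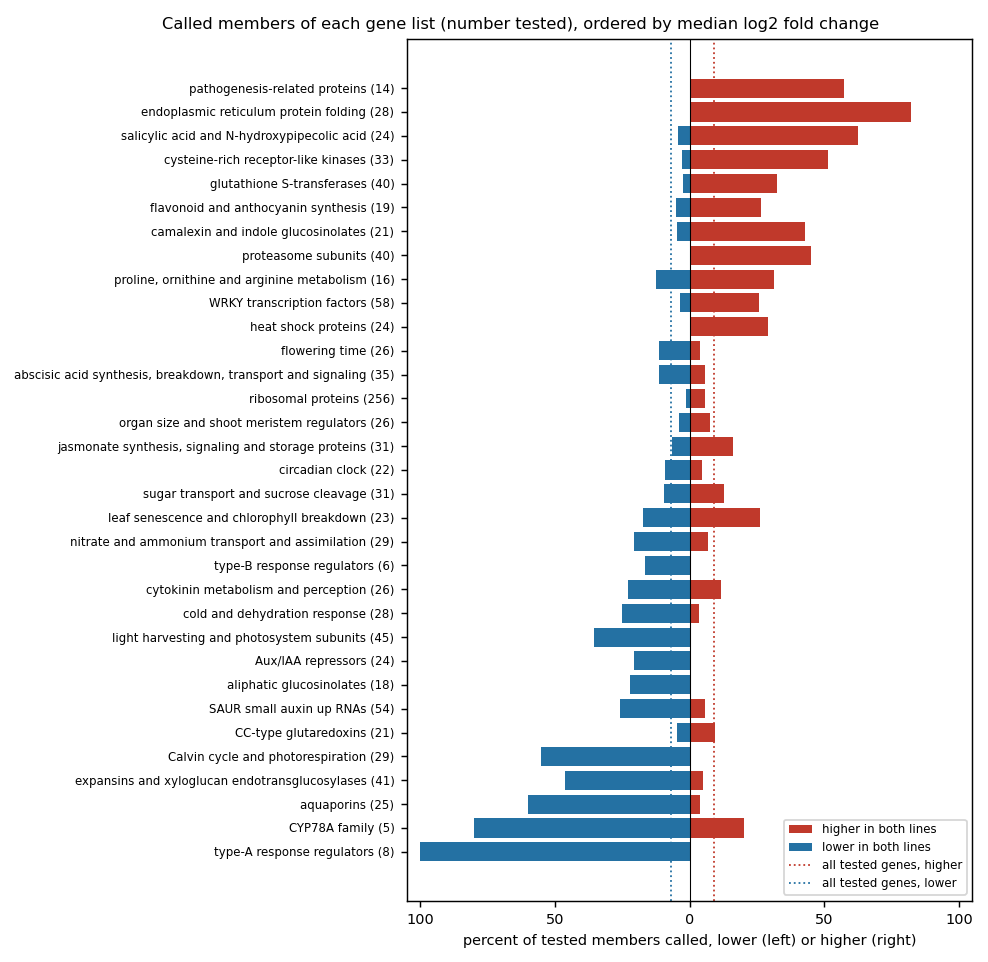
Percent of the tested members of each gene list that were lower (left) or higher (right) in both 35S:KLU lines relative to Col-0, ordered by the median log2 fold change, with the number tested in parentheses and dotted lines at the shares of all tested genes (7.03% lower, 8.93% higher). ER protein folding has the largest higher share (82.1%) and type-A response regulators the largest lower share (100%).

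Among the most abundant transcripts, the higher DEGs included AT2G25510 and AT3G22235, both without a described function in the annotation used. AT2G25510 averaged 8686 ± 872 FPKM in 35S:KLU plants (SD, n = 6) and 5817 ± 584 FPKM in Col-0 (SD, n = 3), and AT3G22235 averaged 6431 ± 538 FPKM in 35S:KLU plants (SD, n = 6) and 4405 ± 420.4 FPKM in Col-0 (SD, n = 3), and neither overlapped between the groups. Among other genes with large falls were CAF1a, a deadenylase subunit gene, at 6.79 to 12.8 FPKM in 35S:KLU plants against 27.4 to 43.6 FPKM in Col-0, and DIC2, a mitochondrial dicarboxylate carrier gene, at 4.27 to 9.67 FPKM in 35S:KLU plants against 16.8 to 45.1 FPKM in Col-0. They fell by 1.89 and 2.05. AT1G13650, of unknown function, was listed at 8.5, 7.67 and 5.89 FPKM in the 35S:KLU1 plants and 3.06, 3.41 and 1.51 FPKM in the 35S:KLU2 plants, against 24.4, 21.8 and 20.2 FPKM in Col-0. All 35S:KLU plants were below Col-0, and AT1G13650 changed with a log2 fold change of -2.09 (SE of 0.17, adjusted p = 0.000965 in 35S:KLU1 and 3.78e-05 in 35S:KLU2). No fold is given for AT1G27565, which was above 0 in all 35S:KLU plants and in none of the Col-0 plants, or for AT4G15242, which was above 0 in none of the 35S:KLU plants and in all Col-0 plants. AT1G27565 passed the 0.5 FPKM limit through 35S:KLU alone and AT4G15242 through Col-0 alone. In the klu plants AT1G27565 was listed at 14.95, 21.29 and 21.84 FPKM and AT4G15242 at 0, 0 and 0 FPKM. Both genes thus set Col-0 apart from klu as well as from 35S:KLU.

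The other motifs searched in the promoter windows were compared in the same way. Site II, TGGGCC on either strand, was in 18% of the windows of higher DEGs, in 9.06% of those of lower DEGs and in 19.1% of all windows. The TGA site TGACGT was in 13.2%, 9.94% and 9.72%, and the GCC box GCCGCC was in 2.59%, 1.54% and 2.68%. The evening element AAAATATCT was in 3.28% of the windows of higher DEGs, 2.78% of those of lower DEGs and 3.08% of all windows. The G box was about as common in both directions, at 8.29% and 9.72%, and the CRT core was in 14.3% and 15.5%. Copies were counted for each motif also where motifs share bases, and the shares are descriptions without a test.

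Few genes passed the test of the lines against each other, although it had the same number of plants per group. With so few plants per line, a gene that did not pass was not shown to be equal in both lines. Between 35S:KLU2 and 35S:KLU1, 4 genes passed the threshold of limma (0.0205% of the tested genes), 1 higher and 3 lower in 35S:KLU2, and 1898 had p under 0.05 before adjustment. Leaving out 35S:KLU1 replicate 1 gave 9 genes past the threshold, and leaving out 35S:KLU1 replicate 3 gave 2. MRD1 was listed at 19.6, 33.9 and 39.4 FPKM in the 35S:KLU2 plants, 0.17, 0.27 and 0 FPKM in the 35S:KLU1 plants and 0.18, 0.07 and 0.07 FPKM in Col-0. All 35S:KLU2 plants were far above the other plants, so that MRD1 passed the 0.5 FPKM limit through 35S:KLU2 alone and without any 1 of these plants was not tested. The lines differed by 4.75 on the log2 scale (adjusted p = 1.14e-05, and 0.342 with the klu libraries in the model). AT2G24990, annotated as a Rio1 kinase, was listed at 4.35, 3.41 and 4.99 FPKM in the 35S:KLU2 plants, 11.9, 13.4 and 11.9 FPKM in the 35S:KLU1 plants and 14.1, 11.1 and 12.1 FPKM in Col-0, so that 35S:KLU1 overlapped with Col-0 and 35S:KLU2 was below both. In the klu plants, which the comparison did not use, AT2G24990 was listed at 4.09, 4.86 and 4.25 FPKM, so that its low level was not particular to 35S:KLU2. AT3G53403, a pseudogene, was listed at 0, 0 and 0 FPKM in the 35S:KLU2 plants, 1.97, 1.42 and 1.73 FPKM in the 35S:KLU1 plants and 0, 0 and 0 FPKM in Col-0. Both AT3G53403 and AT5G35935 passed the 0.5 FPKM limit through 35S:KLU1 alone, and without any 1 of these plants they were not tested. AT5G35935, a transposable element gene, was at 0.35, 0.31 and 0.43 FPKM in the 35S:KLU2 plants, 3.28, 2.71 and 2.98 FPKM in the 35S:KLU1 plants and 0.02, 0.02 and 0.03 FPKM in Col-0, and is the 1 common DEG in which the lines differed, although its call against Col-0 ended in 8 of 14 alternatives (for the lines, adjusted p = 0.000861, and 0.462 with the klu libraries in the model).

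At the limit of the test, AT5G55430 and BFT were just inside, with 0.5 FPKM in their third-highest library, and AT1G15385 and AT1G27285 just outside, with 0.49 FPKM. AHK2, AHK3, ANT, AOS, BIP1, BZIP28, BZIP60, CNX1, COR15A, CRT1A, CRT3, FLC, GIF1, KIN1 and SOC1 lie outside the rule by which genes were named and were picked after their values were seen.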

How the data were processed

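RNA was sequenced from whole rosettes of individual plants, with 3 libraries per genotype. According to the study's methods and processing notes, the authors made strand-specific paired-end libraries from poly(A) RNA, mapped the reads to TAIR10 with STAR, whose version is not given in the sources used here, and deposited FPKM from RSEM 1.2.22, 1 column per library and without pooling. A supplement of the study calls the values RPKM, and the column headers were followed. The deposited table also holds log2 fold changes and p-values of the authors' own DESeq2 comparisons, which were not used, and 0 columns of per-sample values were left unused.

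Log2(FPKM + 1) was tested with limma 3.58.1 in R 4.3.3, two-sided, as a model of 3 genotype means in 9 libraries with the variance trended over expression, and p-values were adjusted by the Benjamini-Hochberg method over the 19492 genes with at least 0.5 FPKM in 3 or more libraries. The pseudocount of 1 understates the changes of low genes. P-values rest on the spread between individual plants within genotypes, pooled over the 3 genotypes with 6 residual degrees of freedom. Limma moved this spread towards that of genes with similar expression, which gave 10.24 degrees of freedom in total. FPKM without fragment counts leave the absolute depth unknown, so that only relative depth was read from the steps between low values. The script was tested on simulated data.

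The members and the 33 gene lists (1312 entries) were chosen with earlier results of these data known, and lists are described by counts and medians and were not tested. Genes could be named if they were KLU, among the 12 largest changes per direction of common DEGs without overlap and with a mean of at least 1 FPKM, among the 8 most abundant common DEGs per direction, among the 6 largest changes of a list, in a list of at most 25 measured members, named by the study for its transcriptome, among the 5 smallest p of the line comparison, or among the 2 nearest the filter on each side. Names, coordinates and promoter sequence came from RefSeq's annotation of TAIR10.1, in which 32835 of the 33323 genes were found.

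Alternatives were the klu libraries in the model, each line alone with Col-0, a pseudocount of 0.1, no filter, at least 1 FPKM in all 9 libraries, scaling by median of ratios or to equal FPKM sums without KLU, library weights, a replicate block, and leaving out each library.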

Additional observations from a re-analysis of the deposited data

Results flagged for a closer look

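The 4 genes that passed limma's test of the difference between the lines were MRD1, with a log2 fold change of 4.75 for 35S:KLU2 minus 35S:KLU1 (adjusted p = 1.14e-05), AT2G24990 with -1.36 (adjusted p = 0.00243), AT3G53403 with -1.43 (adjusted p = 0.00243), a fitted value that is no bound because all 35S:KLU2 plants were listed at 0, and AT5G35935 with -1.55 (adjusted p = 0.000861). Of these, MRD1 passed the filter on low values through the 35S:KLU2 plants alone, and AT3G53403 and AT5G35935 through the 35S:KLU1 plants alone, the groups in which they are high, so that for these 3 genes the difference was a condition of being tested. In the klu libraries, which the comparison of 35S:KLU with Col-0 does not use, AT1G27565 was listed at a median of 21.29 FPKM, whereas all 3 Col-0 plants were listed at 0. MRD1 was listed at 15.26, 0 and 0.19 FPKM in the klu plants. Groups of 3 plants were too small for the test of single outlying values.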

How the results depend on the processing

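With the klu libraries in the model, common DEGs numbered 1809 (3111 without them), DEGs of 35S:KLU1 2310 (3988), DEGs of 35S:KLU2 3159 (5049) and DEGs between the lines 2 (4). The DEGs between the lines also numbered 7 with a pseudocount of 0.1, 7 with no filter and 1 with at least 1 FPKM in all 9 libraries, and each line alone with Col-0 gives no value for them. Leaving out 1 library gave 2279 to 3021 common DEGs, 2744 to 3979 DEGs of 35S:KLU1, 3167 to 4938 of 35S:KLU2 and 2 to 9 between the lines. The other alternatives gave 2562 to 3507 common DEGs, with 49.1% to 57.7% of them higher, and no common DEG was reversed under any alternative that was run. Plants with the same replicate number did not deviate together, with correlations of -0.171 to 0.0258, and the replicate block gave 2562 common DEGs, 3227 DEGs of 35S:KLU1, 4231 of 35S:KLU2 and 5 between the lines. Of 354 called genes that were named or in a list, 204 kept their call in all alternatives that tested them, 150 lost it in at least 1, and 0 were reversed. The number of called members of a list moved by more than 1.5 times in 79 of 594 cases, and the median of a list moved by at least 1 SD over the 35S:KLU plants in 22 of 594. Depth limits genes near 0.5 FPKM, where single fragments make up much of each value, and 35S:KLU2 replicates 2 and 3 were shallowest.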
